A study of Mus musculus with 6 samples.

Results

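The genes described here encode the NF-kB transcription factors and the proteins that restrain them: the subunits Rela, Relb, Rel, Nfkb1 and Nfkb2, the inhibitors Nfkbia, Nfkbid, Nfkbie and Nfkbiz, and Tnfaip3, which encodes the ubiquitin-editing enzyme A20. They were chosen by gene name with earlier results of these data known, and the value that brought them forward was the signal of Tnfaip3 in both comparisons against vehicle-treated wild-type cells. Differences of Tnfaip3 are therefore given as a description, with no test of their own. Of the 10 genes, 9 had at least 1 probe set, a group of short probes that reads 1 transcript, in the platform annotation, and together they had 18 probe sets among 34945 with a single gene symbol. Nfkb1 was not analysed here.

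The samples were unactivated regulatory T cells (Tregs), the CD4 T cells that hold back immune responses. Per the labels they were sorted as GFP-positive CD4+CD25+FoxP3+ cells from spleen and lymph nodes of C57Bl/6 mice aged 8 to 11 weeks. All mice carried the FoxP3GFP reporter. WT vehicle cells came from A2AR+/+FoxP3GFP mice and received DMSO, KO vehicle cells came from A2AR-/-FoxP3GFP mice without the adenosine receptor A2AR and received DMSO, and WT ATL1222 cells came from A2AR+/+FoxP3GFP mice and received 10 nM of the A2AR agonist ATL1222, each for 18 h. Each group had 2 arrays, called biological replicates in the labels, with no word on animals or pooling. P-values therefore measure only the spread between these arrays, and an exact two-sided test of 2 arrays against 2 cannot give less than 0.33. The SE, 95% intervals and p-values from limma draw this spread partly from all features tested. They are not a gene's own replicate error. On the brightest probe set of each measured member the SE given is smaller than its own replicates would give. For Tnfaip3 it was 0.21, where its own replicates alone would give 0.356.

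The 6 arrays had median signals from 74.68 to 98.17 on the deposited linear scale. Signals of the 7 fixed Treg markers were uneven. The lowest value on any array was 6810 for Ikzf2, 5319 for Nrp1, 3432 for Ctla4 and 1848 for Cd3e. Il2ra, which encodes CD25, lay lower at 416 to 613, and Cd4 at 136 to 488. The Foxp3 probe set lay at 7.18 to 53.5 and so gave no check of the sort. Of 16 fixed markers of other cells, 14 had a probe set and none was listed at 0. The summed signal of 3 CD8 T and NK cell markers was 320.9 to 351.9 in KO vehicle, 218.8 to 237.7 in WT vehicle and 224.9 to 228.5 in WT ATL1222. That of 4 dendritic cell markers was 104.9 to 121.7, 140.7 to 145.9 and 169.6 to 189.7 in the same order of groups, that of 3 B cell markers 408.3 to 508.2, 408.8 to 463.6 and 522.9 to 529.9, and that of 4 myeloid markers 218.0 to 265.0, 200.9 to 270.6 and 199.5 to 235.3. The sum of the dendritic cell markers was thus ordered like Tnfaip3 over the groups, although its single markers lay at 7.82 to 91.7 and of their group means those of Xcr1 alone followed that order. The part of these markers in the results was not tested. In bulk RNA, fewer cells of a type and less RNA per cell cannot be told apart. Spiked-in poly-A control RNAs were brighter on replicate 1 than on replicate 2 in every group, by 1.18 to 2.02 times, so each difference is also given within replicate 1 and within replicate 2.

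NF-kB dimers wait in the cytoplasm, bound by IkB proteins, until IkB kinase (IKK) marks the inhibitor for destruction. Signals from the T cell receptor, from co-stimulatory receptors of the TNF receptor family and from cytokine receptors converge on IKK through chains of ubiquitin, which A20 edits and removes. Nfkbia and Tnfaip3 are themselves textbook targets of NF-kB and form its negative feedback. In Tregs, Rel is needed for their development in the thymus, and the nuclear IkB protein encoded by Nfkbid supports induction of Foxp3.

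Promoter sequences are shown for 4 of the genes, chosen after their values were seen: Tnfaip3, which on each gene's brightest probe set differed most between groups, Rel and Nfkbid, which on that basis came next with the agonist against the knockout, and Nfkbia, which differed little. Each is the 250 bases before a transcription start, from RefSeq on build GRCm38.p6, read 5′ to 3′ along the gene's strand. Capitals mark matches, on both strands, to the CRE palindrome TGACGTCA, to its core TGACG and to the kB consensus. TGACGTCA always contains TGACG, and kB matches can overlap. The windows were chr10:19015411-19015660 on the minus strand for Tnfaip3, chr7:30422156-30422405 on the plus strand for the Nfkbid start that has the palindrome, chr11:23770970-23771219 on the minus strand for Rel and chr12:55492648-55492897 on the minus strand for Nfkbia.
Tnfaip3: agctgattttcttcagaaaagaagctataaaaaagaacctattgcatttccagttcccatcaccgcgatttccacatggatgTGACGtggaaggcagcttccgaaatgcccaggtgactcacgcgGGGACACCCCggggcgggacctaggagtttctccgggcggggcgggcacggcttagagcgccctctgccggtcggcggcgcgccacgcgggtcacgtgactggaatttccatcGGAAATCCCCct
Nfkbid: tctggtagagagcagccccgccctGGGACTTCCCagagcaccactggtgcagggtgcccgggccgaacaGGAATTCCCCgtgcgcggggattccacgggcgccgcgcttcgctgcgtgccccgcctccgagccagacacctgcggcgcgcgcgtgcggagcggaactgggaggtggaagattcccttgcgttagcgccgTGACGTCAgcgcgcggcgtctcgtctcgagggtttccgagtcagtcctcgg
Rel: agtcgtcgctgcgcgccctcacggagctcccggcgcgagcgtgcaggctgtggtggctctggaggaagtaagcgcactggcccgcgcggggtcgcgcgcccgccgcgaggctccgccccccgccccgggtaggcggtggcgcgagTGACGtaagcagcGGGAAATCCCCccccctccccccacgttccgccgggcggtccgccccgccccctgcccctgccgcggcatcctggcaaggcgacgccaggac
Nfkbia: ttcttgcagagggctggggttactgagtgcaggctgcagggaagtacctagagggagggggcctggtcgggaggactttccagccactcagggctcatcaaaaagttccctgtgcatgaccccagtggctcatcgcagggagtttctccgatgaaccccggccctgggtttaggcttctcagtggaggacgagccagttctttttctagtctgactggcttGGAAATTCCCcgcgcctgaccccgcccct

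In this Tnfaip3 window the TGACG core begins 168 bases before the start, and kB matches begin 125 and 12 bases before it. The Nfkbid window holds the palindrome, beginning 51 bases before the start, and kB matches at 226 and 181 bases. Rel holds the core at 105 bases and overlapping kB matches at 92 and 91 bases, and Nfkbia holds a kB match at 29 bases and no TGACG. RefSeq promoters were found for 7 of the 10 genes, with 12 windows in all. Of these 12 windows, 1 held TGACGTCA, 5 held TGACG and 8 held the kB consensus. Among all 32851 promoter windows of the table the shares were 1.5%, 17.8% and 7.3%. The TGACG windows not shown belonged to Nfkb2 and also held kB matches. The brightest probe set of Nfkb2 differed little from WT vehicle (log2 -0.07 in the knockout and 0.09 with the agonist), while its other probe set differed more. The windows shown were chosen after the values were seen, and whether TGACG relates to the differences between groups was not tested. A further start of Tnfaip3 and 2 further starts of Nfkbid had no match to any of the 3. A match describes the letters in a window and is not evidence of binding.

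On each gene's brightest probe set, Tnfaip3 was the member whose level differed most between the groups. Its brighter probe set, 1433699_at, had signals of 1509 and 1209 in KO vehicle, 3540 and 2131 in WT vehicle, and 7721 and 6003 in WT ATL1222 (replicates 1 and 2). The order was knockout, wild type, agonist, and no neighbouring groups overlapped. The mean was 1359 ± 212 (SD, n = 2), 2836 ± 996 and 6862 ± 1215 in that order. On the log2(signal + 16) scale used for all fold changes, Tnfaip3 was 2.02-fold lower in KO vehicle than in WT vehicle (log2 -1.02 ± 0.21 SE; within replicates -1.22 and -0.81) and 2.47-fold higher with ATL1222 than in WT vehicle (1.30 ± 0.21; within replicates 1.12 and 1.49). Both comparisons share the WT vehicle arrays. Between WT ATL1222 and KO vehicle, which share no array, the difference was 4.99-fold (2.32 ± 0.21; within replicates 2.34 and 2.30). The size of the first 2 differences turned on WT vehicle: without its replicate 1 they were -0.65 and 1.67, and without its replicate 2 they were -1.38 and 0.94.

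The dimmer Tnfaip3 probe set, 1450829_at, read low in both vehicle groups. Its signals were 57.7 and 77.6 in KO vehicle, 63.6 and 69.4 in WT vehicle, and 337.5 and 257.9 in WT ATL1222. The agonist arrays stood above all others, while knockout and wild-type vehicle arrays overlapped near the limit of 55.4 below which probe sets were not tested. The log2 difference from WT vehicle was 1.92 ± 0.35 SE with ATL1222 (within replicates 2.15 and 1.68) and 0.01 ± 0.35 in the knockout, with a 95% interval from -0.76 to 0.78. Both probe sets thus read higher with the agonist. In the knockout they differed. With 16 added to each signal, changes of so dim a probe set are understated. Why the 2 probe sets differed in the knockout was not tested.

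**Figure D1:**
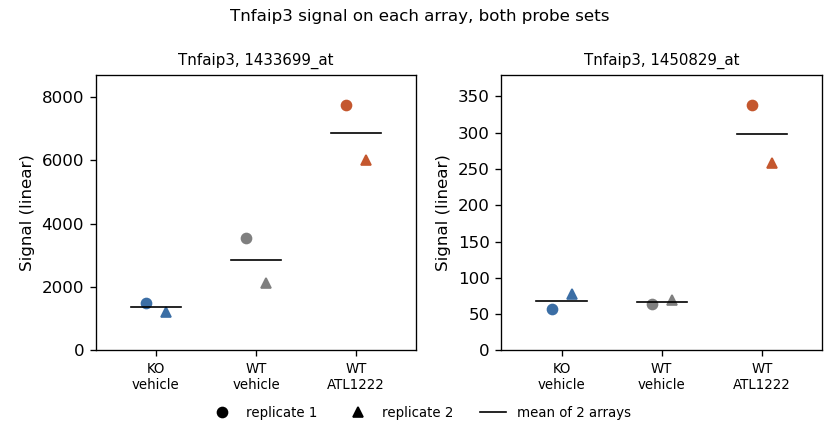
Signal of Tnfaip3 on each array on a linear axis from 0, for its brighter (left) and dimmer (right) probe set, by group, with circles for replicate 1, triangles for replicate 2 and a line at the mean. In the left panel the groups separate in the order KO vehicle, WT vehicle, WT ATL1222; in the right panel KO and WT vehicle overlap between 57.7 and 77.6 and the agonist arrays lie at 257.9 and 337.5.

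Across all genes tested, 3 of 10916 (0.0275%) passed an adjusted p of 0.05 in limma for KO vehicle against WT vehicle, 23 (0.211%) for WT ATL1222 against WT vehicle and 109 (0.999%) for WT ATL1222 against KO vehicle. Of the 9 measured members, each represented by its brightest probe set, 0 were among them in the first comparison, and Tnfaip3 was the single one in the second and in the third. Nothing is read from these counts, since Tnfaip3 brought the group forward. At an unadjusted p under 0.05 the members numbered 1, 2 and 3 in the 3 comparisons (shares of all genes 3.89%, 5.03% and 8.48%). The adjusted count in the second comparison fell to 0 when WT vehicle replicate 2 or WT ATL1222 replicate 1 was left out, and the first became 1 when WT vehicle replicate 2 was. With each probe set tested separately, 0 of the 18 passed for KO vehicle against WT vehicle, where 0 of 20967 probe sets (0%) did, and 0 passed for WT ATL1222 against WT vehicle, where 18 (0.0858%) did. The numbers at an unadjusted p under 0.05 there were 2 and 3 of the 18, and 706 and 856 of all.

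The median log2 fold change of the 9 members was -0.10 in the knockout and 0.15 with the agonist, beside medians of 0.00 and -0.01 over all genes. In the knockout 8 had a negative and 1 a positive value, and with the agonist 1 had a negative and 8 a positive value, beside 50.9% and 48.6% of all genes positive. Groups did not overlap for 2 members lower in KO vehicle than in WT vehicle, Tnfaip3 and Nfkbie (13.7% of all genes tested), and for 4 higher with ATL1222 than in WT vehicle, Tnfaip3, Nfkbid, Rel and Relb (14.5%). Between WT ATL1222 and KO vehicle 6 were higher without overlap, adding Nfkbie and Nfkb2 (17.4%). All of these medians and counts include Tnfaip3, which brought the group forward, so nothing is read from them.

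Among the measured DNA-binding subunits, the log2 SD between replicates on the brightest probe set was 0.203 for Rela, 0.226 for Nfkb2, 0.278 for Relb and 0.428 for Rel. Rela, which encodes p65, the main activating subunit, had signals of 2250 and 1863 in KO vehicle, 2340 and 1838 in WT vehicle, and 2401 and 2037 in WT ATL1222. The 3 groups overlapped. Its log2 difference from WT vehicle was -0.02 ± 0.16 SE in the knockout and 0.09 ± 0.16 with the agonist (limma adjusted p = 1.00 and 0.998), with 95% intervals from -0.37 to 0.33 and from -0.26 to 0.44.

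Relb, the subunit of the alternative pathway, had signals of 297.1 and 345.4 in KO vehicle, 411.9 and 258.1 in WT vehicle, and 425.0 and 452.4 in WT ATL1222. The knockout arrays lay between the 2 WT vehicle arrays, and the agonist arrays lay just above the higher of them. The agonist difference was 0.41 ± 0.24 on the log2 scale (limma adjusted p = 0.998), at 0.04 within replicate 1 and 0.77 within replicate 2. Without WT vehicle replicate 2 it was 0.09.

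Rel, which encodes c-Rel, the subunit most tied to lymphocyte activation, had signals of 213.4 and 99.7 in KO vehicle, 236.7 and 183.5 in WT vehicle, and 312.4 and 290.4 in WT ATL1222. The agonist arrays were highest and did not overlap with any other. The log2 difference from WT vehicle was 0.50 ± 0.32 with the agonist and -0.46 ± 0.32 in the knockout, and neither passed (limma adjusted p = 0.998 and 1.00). The knockout value rested on 1 array: without KO vehicle replicate 2 it was 0.03, and without replicate 1 it was -0.96. Against KO vehicle the agonist difference was 0.96 ± 0.32 (limma adjusted p = 0.282), and it was positive within replicate 1 (0.52) and within replicate 2 (1.40).

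Nfkb2, which encodes p100, the precursor of the p52 subunit and itself an inhibitor, was read by 2 probe sets that disagreed. The brighter one, 1429128_x_at, had 623.7 and 535.6 in KO vehicle, 726.7 and 506.5 in WT vehicle, and 660.7 and 630.9 in WT ATL1222, with log2 differences from WT vehicle of -0.07 ± 0.20 and 0.09 ± 0.20 (limma adjusted p = 1.00 and 0.998). The other, 1425902_a_at, had 285.0 and 13.2, 429.3 and 215.5, and 668.7 and 502.2 in the same order of groups. On it the knockout replicates stood 21.5-fold apart in signal, and the log2 differences were -1.77 ± 0.78 in the knockout and 0.89 ± 0.78 with the agonist (limma adjusted p = 1.00 for both over all probe sets). Between WT ATL1222 and KO vehicle this probe set differed by 2.67 ± 0.78 (limma adjusted p = 0.353; within replicates 1.19 and 4.15), a larger estimate than that of the brighter Tnfaip3 probe set. Its knockout difference was -0.57 within replicate 1 and -2.99 within replicate 2, so the size rested on the array at 13.2.

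**Figure D2:**
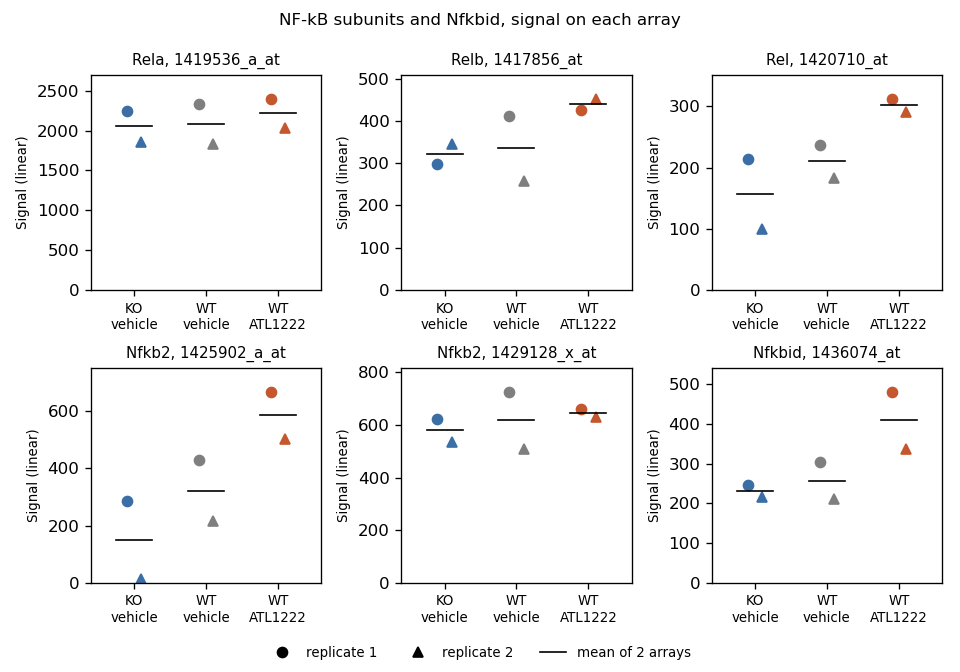
Signal on each array, on linear axes from 0 that differ between panels, for the probe sets of Rela, Relb, Rel, Nfkb2 and Nfkbid, by group, with circles for replicate 1, triangles for replicate 2 and a line at the mean. Rela overlaps in all 3 groups, Rel and Nfkbid are highest in WT ATL1222, and the probe sets of Nfkb2 differ in KO vehicle, where one reads 13.2 on replicate 2 and the other 535.6.

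Among the IkB genes, Nfkbid had the largest agonist difference on its brightest probe set. Nfkbid encodes IkBNS, an atypical IkB protein that acts in the nucleus. Its 1 probe set had signals of 245.2 and 214.9 in KO vehicle, 304.3 and 209.9 in WT vehicle, and 481.8 and 336.0 in WT ATL1222. Knockout and wild-type vehicle arrays overlapped, and both agonist arrays lay above them. The agonist difference was 1.56-fold (log2 0.64 ± 0.26, 95% interval 0.09 to 1.19), at 0.64 within replicate 1 and 0.64 within replicate 2, with an unadjusted p = 0.0265 in limma that did not pass over all genes (adjusted p = 0.863). Leaving out WT vehicle replicate 2 gave 0.39, and leaving out WT vehicle replicate 1 gave 0.89. The knockout difference was -0.13 ± 0.26 (limma adjusted p = 1.00).

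Nfkbia encodes IkB alpha, the inhibitor that is degraded and remade within each round of NF-kB activation. It had 5 probe sets, and none passed in any comparison with WT vehicle. The brightest, 1420088_at, had signals of 14320.0 and 10818 in KO vehicle, 13679 and 12942 in WT vehicle, and 12718 and 13019 in WT ATL1222. Its log2 difference from WT vehicle was -0.10 ± 0.14 in the knockout and -0.05 ± 0.14 with the agonist (limma adjusted p = 1.00 and 0.998), with 95% intervals from -0.40 to 0.21 and from -0.36 to 0.26. On 2 of the dimmer probe sets both knockout arrays lay below both WT vehicle arrays, and on the other three they overlapped. Over the 5 probe sets the differences ran from -0.19 to -0.07 in the knockout and from -0.05 to 0.04 with the agonist. Nfkbia and Tnfaip3 are both known feedback inhibitors of the pathway, and the difference between their responses was not tested.

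Nfkbie, which encodes the cytoplasmic inhibitor IkB epsilon, was lowest in the knockout on both of its probe sets. The brighter one had 692.1 and 645.2 in KO vehicle, 966.3 and 754.2 in WT vehicle, and 966.3 and 754.7 in WT ATL1222, and the dimmer one 257.8 and 225.0, 331.2 and 271.1, and 383.8 and 321.2. On both, the knockout arrays lay below every other array. The knockout differences were -0.35 ± 0.19 and -0.30 ± 0.23 on the log2 scale and did not pass (limma adjusted p = 1.00 for each). With the agonist the brighter one gave 0.00 ± 0.19 and the dimmer one 0.22 ± 0.23.

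Nfkbiz encodes IkB zeta, a nuclear IkB protein that NF-kB induces. Its brightest probe set had 1223 and 1035 in KO vehicle, 1257 and 885.0 in WT vehicle, and 1295 and 1064 in WT ATL1222, and the groups overlapped (log2 0.09 ± 0.19 in the knockout and 0.15 ± 0.19 with the agonist, limma adjusted p = 1.00 and 0.998). A second, 1457404_at, lay between 441.7 and 588.0 on all arrays. The third, 1448728_a_at, followed the replicate number and not the group: its signals were 129.9 and 239.0 in KO vehicle, 125.6 and 247.9 in WT vehicle, and 131.2 and 253.2 in WT ATL1222. In all 3 groups replicate 2 was the brighter array, with the spiked-in controls running the opposite way.

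**Figure D3:**
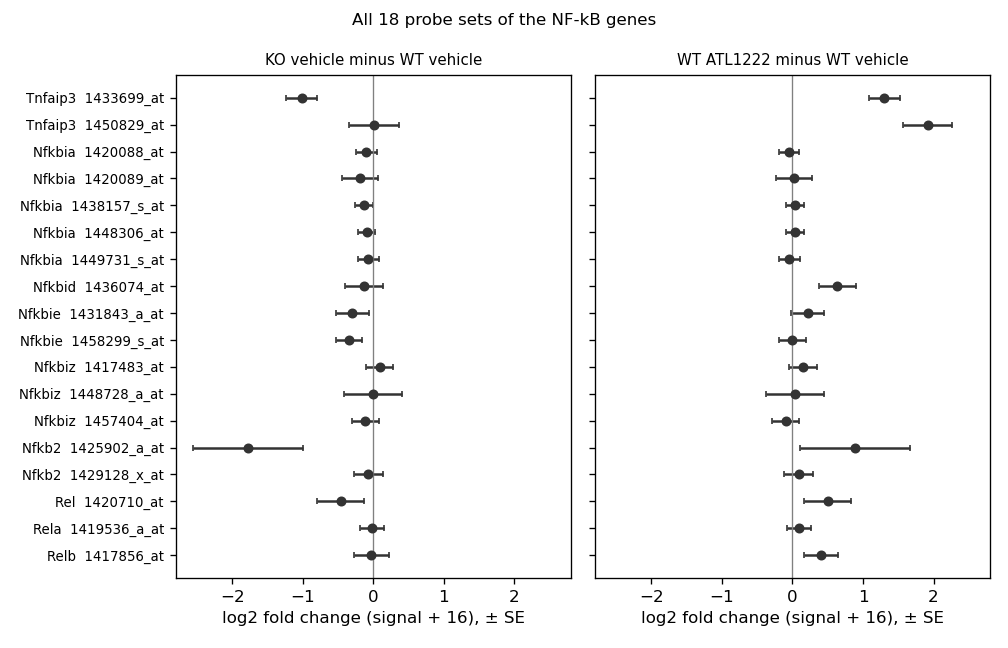
Log2 fold change of all 18 probe sets against WT vehicle, for KO vehicle (left) and WT ATL1222 (right); points are limma estimates and bars are ± 1 SE. The Tnfaip3 probe sets lie at 1.30 and 1.92 with the agonist and at -1.02 and 0.01 in the knockout, the 5 of Nfkbia lie near 0 in both panels, and 1 probe set of Nfkb2 has the widest bars.

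The genes whose pattern over the 6 arrays was most like that of Tnfaip3 were Cebpb, Odc1, Id2, Dgat1, Rnf157 and Fosl2, measured as the root mean square difference of log2 values centred on each gene's own mean. This ran from 0.148 for Cebpb to 0.236 for Fosl2, with a median of 1.01 over the 10915 other genes tested. Cebpb, which encodes the transcription factor C/EBP beta, had signals of 705.5 and 558 in KO vehicle, 1448 and 963 in WT vehicle, and 2794 and 2285 in WT ATL1222. Odc1, which encodes an enzyme that makes polyamines, had 2242 and 2261, 6810.4 and 3757, and 13756 and 13238. Both share with Tnfaip3 the order of the groups and a brighter replicate 1 in WT vehicle. They were picked as closest to it over these same arrays, so nothing is read from this likeness. By this measure the nearest fellow members were Rel, at rank 94 (0.606), and Nfkbid, at rank 126 (0.641), while Nfkbia was at rank 3606 (0.959). The measure is not scaled, so it reflects the size of differences as well as their order. A gene that hardly differs, such as Nfkbia, can thus lie nearer than the median gene.

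None of the tested genes of the kinase list upstream of the members passed in any comparison. The list holds IKK and TAK1 kinases, related kinases and the non-kinase subunits Ikbkg, Tab1, Tab2 and Tab3. Of its 11 genes 10 were tested, and the IKK kinase gene Chuk was not. In limma 0 rose and 0 fell in any of the 3 comparisons. At an unadjusted p under 0.05 there were 1, 0 and 1, beside 3.89%, 5.03% and 8.48% of all genes. Their median log2 difference from WT vehicle was 0.12 in the knockout and 0.05 with the agonist. The smallest p belonged to Map3k14, which encodes NIK, the kinase that starts the alternative pathway (0.51 ± 0.22 in the knockout, limma adjusted p = 1.00), Ikbke (0.24 ± 0.14) and Ikbkb (0.21 ± 0.15). Map3k14 read 390.3 and 422 in KO vehicle, 258 and 304 in WT vehicle, and 325.5 and 458 in WT ATL1222, so WT vehicle was lowest.

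Of 20 adaptors and ubiquitin ligases upstream of IKK 16 were tested, and 0 rose and 0 fell in any comparison in limma. At an unadjusted p under 0.05 there were 3, 0 and 3, beside 3.89%, 5.03% and 8.48% of all genes. Their median was -0.095 in the knockout and -0.02 with the agonist. Irak1, the kinase that links Toll-like and interleukin-1 receptors to the pathway, had -0.99 ± 0.28 in the knockout (limma adjusted p = 0.906) and read 936 and 512 there, 1695 and 1146 in WT vehicle, and 1580.0 and 992 in WT ATL1222. Ube2n, which encodes Ubc13, the enzyme that builds lysine-linked signalling chains of ubiquitin, had -0.56 ± 0.18, and Prkcq, a kinase of T cell receptor signalling, had 0.39 ± 0.14 (limma adjusted p = 1.00 for both). With the agonist the values of these 3 genes lay between -0.22 and -0.11.

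No tested gene of the A20 partner list passed in any comparison. The list holds A20 partners and other deubiquitinases, besides Tnfaip8 and Tnfaip8l2, which are neither. Of its 13 genes 12 were tested, and 0 rose and 0 fell in limma in any comparison. At an unadjusted p under 0.05 there were 0, 0 and 1, beside 3.89%, 5.03% and 8.48% of all genes. Their differences from WT vehicle ran from -0.27 to 0.33 in the knockout and from -0.44 to 0.23 with the agonist. Tnip2, which encodes the A20-binding protein ABIN-2, had -0.44 ± 0.39 with the agonist, Otulin, which removes linear ubiquitin chains, had 0.33 ± 0.20 in the knockout, and Tnfaip8 had -0.27 ± 0.20 there, none passing (limma adjusted p = 0.998, 1.00 and 1.00). All 5 further IkB family genes and cofactors were tested and 0 rose and 0 fell in limma. At an unadjusted p under 0.05 there were 0, 0 and 2, beside the same shares of all genes. Nfkbib, which encodes IkB beta, read 380.4 and 292 in KO vehicle, 481 and 428 in WT vehicle, and 551 and 578 in WT ATL1222. The groups were in the same order as for Tnfaip3 and did not overlap. Of all genes tested, 13.7% were lower in KO vehicle and 14.5% higher with ATL1222 than in WT vehicle without overlap. The share with both was not counted. The differences of Nfkbib from WT vehicle were -0.43 ± 0.20 and 0.31 ± 0.20 (limma adjusted p = 1.00 and 0.998). Bcl3, a nuclear IkB protein that pairs with p50 and p52, had -0.18 ± 0.20 and 0.35 ± 0.20, and Nkrf, a repressor at kB sites, had 0.01 ± 0.24 and 0.35 ± 0.24 (limma adjusted p = 1.00 and 0.998 for each).

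Of 30 genes known as NF-kB targets outside the members 24 were tested. With ATL1222 against WT vehicle 1 rose and 0 fell, and in the knockout 0 rose and 0 fell. At an unadjusted p under 0.05 in limma there were 3 for KO vehicle against WT vehicle, 6 for WT ATL1222 against WT vehicle and 9 for WT ATL1222 against KO vehicle, beside 3.89%, 5.03% and 8.48% of all genes. Their median was -0.10 in the knockout, where 6 were positive and 18 negative, and 0.04 with the agonist, where 14 were positive and 10 negative, beside 50.9% and 48.6% of all genes positive. The gene that rose was Tnfrsf9, the co-stimulatory receptor 4-1BB, which read 339.7 and 380.1 in KO vehicle, 551.5 and 435 in WT vehicle, and 978 and 1629.9 in WT ATL1222 (log2 1.34 ± 0.23, limma adjusted p = 0.0282). WT ATL1222 and KO vehicle differ in genotype as well as treatment. Between them 5 of the 24 passed as higher in WT ATL1222 and 0 as lower. Of all 10916 genes 96 passed as higher there, and 0.999% passed in either direction. The list was drawn up with earlier results of these data known. The 5 were Tnfrsf9 (1.77 ± 0.23), the AP-1 gene Junb (1.30 ± 0.24), the OX40 gene Tnfrsf4 (0.98 ± 0.18), the homing receptor Ccr7 (0.80 ± 0.14) and the stress response gene Gadd45b (0.78 ± 0.16), with limma adjusted p from 9.04e-04 to 0.0370.

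These 5 target genes did not share 1 pattern against WT vehicle. Gadd45b had -0.78 ± 0.16 in the knockout (limma adjusted p = 0.547) and -0.004 ± 0.16 with the agonist, reading 579 and 511 in KO vehicle, 926 and 967 in WT vehicle, and 958 and 929 in WT ATL1222. Ccr7 had -0.08 ± 0.14 in the knockout and 0.72 ± 0.14 with the agonist (limma adjusted p = 1.00 and 0.0534), and Junb had -0.29 ± 0.25 and 1.01 ± 0.25 (limma adjusted p = 1.00 and 0.179). The next smallest p were those of the early response gene Ier2 (0.75 ± 0.20 with the agonist, limma adjusted p = 0.323), the chemokine Ccl5 (-0.59 ± 0.23 with the agonist, limma adjusted p = 0.781) and the cyclin Ccnd2 (-0.39 ± 0.15 in the knockout, limma adjusted p = 1.00). Most of these targets also answer to other pathways, so the list describes genes and not NF-kB activity.

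**Figure D4:**
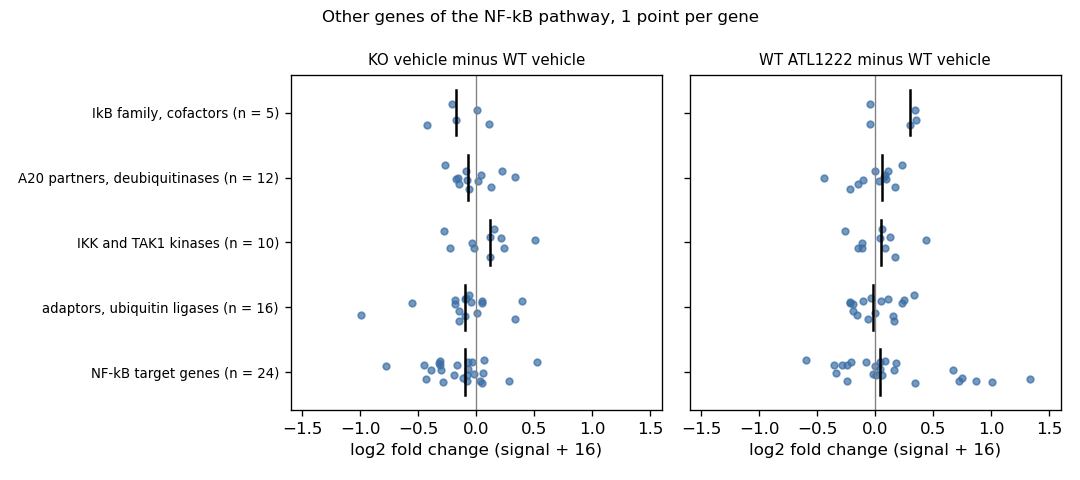
Log2 fold change against WT vehicle of the other tested pathway genes, by list, for KO vehicle (left) and WT ATL1222 (right); each point is 1 gene, spread vertically at random within its list, and black lines are list medians. Points of the kinase, adaptor and A20 partner lists with the agonist lie between -0.44 and 0.44, and the target list reaches 1.34, the value of Tnfrsf9.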

How the data were processed

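Per the file headers and labels, the deposited values are linear signal intensities of 45101 probe sets on 6 arrays, which the authors processed with GCOS per the submitters' processing notes. The sources used here give no version, summarization method or genome build. RNA (1 µg) was labelled with biotin per the labels' protocols. Each array had a mean of 250.0 once the highest and lowest 2% were left out, so this scaling was kept. No 2 arrays were identical.

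The 64 control probe sets were dropped before the fits. Symbols came from the platform annotation, updated by Entrez identifier (34741 of 34945 matched to RefSeq, GRCm38.p6). Values were log2(signal + 16), which understates changes of dim genes. Each of 18193 genes took its brightest probe set, and the lowest 40% of genes (signal of about 71.2) or of probe sets (about 55.4) were left out. All 9 measured members and their 18 probe sets passed this limit. limma 3.58.1 in R 4.3.3 was fitted across all genes, with a mean-variance trend and 6 arrays in 1 fit; p-values were adjusted by Benjamini-Hochberg. The fit was run on simulated data with independent, normally distributed values, which does not show the error rate of the calls made here. The median SE of a log2 fold change was 0.231; the number of arrays limits the precision.

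Members, 5 pathway lists, markers and alternatives were chosen with earlier results of these data known. Pathway genes were named where they passed in any comparison, besides the 3 further genes of each list with the smallest p against WT vehicle; the 6 genes most like Tnfaip3 were named by the root mean square difference. Alternatives were 2 other pseudocounts, 2 other dim limits, quantile normalization, cyclic loess, no variance trend, averaged probe sets, 4 arrays a fit, a replicate block and leaving out each array.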

Additional observations from a re-analysis of the deposited data

How the results depend on the processing

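Of 288 fold changes of the 9 members recomputed under 16 alternatives, 269 moved by less than 1 SD between replicates, 19 moved further, and the agonist difference of Tnfaip3 never changed sign. Many of the 269 could not move. The dim limits, the variance trend, the replicate block and the fit of 4 arrays do not change a fold change. Nor does leaving out an array of the group not compared. The count is therefore no measure of stability. The difference of Tnfaip3 from WT vehicle ran from 0.94 to 1.67 with the agonist and from -1.38 to -0.50 in the knockout, where -0.50 is the mean of its 2 probe sets. For WT ATL1222 against WT vehicle the 23 genes that passed became 14 with no filter on dim genes, 36 with a filter of 60%, 35 after cyclic loess, 3 with probe sets averaged, 0 without the variance trend and 44 with 4 arrays, and ran from 5 (without WT vehicle replicate 2 or WT ATL1222 replicate 1) to 39 (without either KO vehicle replicate) when 1 array was left out. The count of 1 member there became 0 with no filter and 0 without the trend, and ran from 0 to 1 with an array left out. The count of 0 member probe sets became 1 after quantile normalization, 1 after cyclic loess and 1 with 4 arrays, and ran from 0 to 1 with an array left out. For KO vehicle against WT vehicle the 3 genes became 0 without the trend and 0 with probe sets averaged, and ran from 3 to 7 (without WT vehicle replicate 2) with an array left out, while the counts of 0 members and 0 member probe sets each ran from 0 to 1. For WT ATL1222 against KO vehicle the count of 1 member became 0 without the trend. An array left alone in its group is assumed to vary like the other groups. The causes were not tested.

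With the replicate number as a block (replicate block), 9 genes, 1 member (Tnfaip3) and 1 member probe set passed for KO vehicle against WT vehicle, and 79 genes and 2 member probe sets for WT ATL1222 against WT vehicle. Nothing is read from the member counts, since Tnfaip3 brought the group forward. Labels do not say that a number marks a shared batch. The differences between replicates 1 and 2 correlated between groups at r from 0.147 to 0.230 across genes, which are not independent, over 2 numbers only. The 2 arrays a group limit all of these counts.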
